A study of Mus musculus with 18 samples.

Results

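The genes described here are the nuclear genes for subunits of the mitochondrial respiratory chain and of ATP synthase, read in mouse induced pluripotent stem cells before and after they were driven towards the epiblast. They were taken by symbol: Ndufa, Ndufb, Ndufc, Ndufs and Ndufv genes with a number, and symbols that start with Uqcr, with Cox followed by 4 to 8, or with Atp5. Symbols with the pseudogene ending -ps were left out, and a total of at least 10 counts over the 18 libraries was required. Of the 45706 genes in the table, 84 had a matching symbol, 4 of these carried the pseudogene ending, and Cox8b had no count in any library. The 79 genes left, called members below, comprised 37 of complex I, 8 of complex III, 17 of complex IV and 17 of complex V. The symbols choose a few genes that are not structural subunits. Atp5sl is an assembly factor of complex I, Atp5s is coupling factor B, and Ndufa4l2 is a relative of Ndufa4 that is induced by hypoxia. The complex was assigned by the start of the symbol alone, not by where the protein is found. Ndufa4 and Ndufa4l2 are thus counted with complex I, and Atp5sl with complex V, on their names only.

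The study asked how the loss of the chromatin protein Hmga2 affects the exit of pluripotent cells from the naive state. RNA was sequenced at 0 h and at 24 h from 1 wt clone and from 2 clones labelled as Hmga2 KO, KO#1 and KO#2, with 3 biological replicates in each of the 6 groups. At 0 h the cells were undifferentiated and lay on mitotically inactivated fibroblast feeders in serum medium with leukaemia inhibitory factor and inhibitors of MEK and GSK3. At 24 h they had been moved to a basement membrane matrix without feeders, in medium with Activin A and bFGF, which yields epiblast-like cells (EpiLCs). Time, medium and the loss of feeders changed together and cannot be told apart in these samples, and with 1 clone per line neither can clone and genotype. The replicates are given as independent biological replicates, each from the same clone of a line, and p-values measure the spread between them.

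Complex I takes electrons from NADH, complex III passes them from ubiquinol to cytochrome c, and complex IV hands them to oxygen. These complexes pump protons across the inner mitochondrial membrane, and complex V, the ATP synthase, lets the protons flow back to make ATP. A small core of catalytic proteins is surrounded by many short accessory subunits, and a few core subunits of complexes I, III, IV and V are encoded by the mitochondrial genome and are not members. The move from the naive to the primed state of mouse pluripotency is known for a shift of energy metabolism from respiration towards glycolysis.

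Library totals ran from 3466436 to 23872837 counts. The share of counts in protein-coding genes was 52.6% to 66.7% in wt cells at 0 h and 41.6% to 63.4% at 24 h, and it was 62.0% to 77.4% and 41.3% to 63.1% in KO#1. It was 76.3% to 79.1% and 82.3% to 84.7% in the libraries labelled KO#2. Levels are given as CPM, the count of a gene relative to a library size that was scaled by TMM factors, which ran from 0.507 in a wt library of 24 h to 1.45 in a library labelled KO#2 of 24 h. A count of 0 allows a level of up to 0.116 to 0.984 CPM by library, for counting error only. The RNA of Hmga2 itself was 17.4, 13.3 and 22.4 CPM in wt cells at 0 h and 5.87, 5.51 and 5.93 CPM at 24 h. It was 10.2, 4.59 and 1.75 CPM in KO#1 at 0 h and 3.67, 2.25 and 0.871 CPM at 24 h. The libraries labelled KO#2 held 4.10, 1.84 and 8.25 CPM of Hmga2 at 0 h and 10.5, 3.02 and 3.48 CPM at 24 h, and the last group overlapped the wt cells. These are RNA levels and do not measure the protein, for which the paper gives a western blot of wt and KO clones. Against wt cells, the log2 fold change of Hmga2 at 0 h was -1.71 in KO#1 (adjusted p = 0.124, edgeR) and -1.90 in the libraries labelled KO#2 (adjusted p = 0.023, edgeR), and at 24 h it was -1.36 (adjusted p = 0.22, edgeR) and -0.04 (adjusted p = 0.966, edgeR). All 5 epiblast genes of a marker list (among them Sox3) rose in each line from 0 h to 24 h. The summed level of 10 fibroblast genes went from between 2117 and 4089 CPM to between 185 and 237 CPM in wt cells, from 1001 to 3136 CPM to 172 to 217 CPM in KO#1, and from 726 to 2693 CPM to 249 to 878 CPM in the libraries labelled KO#2. Not all of these genes went down. In wt cells and in KO#1, 7 of 10 fell and 1 rose (Dcn, at 3 counts or fewer in each wt library of 0 h), and in the libraries labelled KO#2 4 fell and none rose. In such bulk samples, fewer cells of a type and less RNA per cell cannot be told apart.

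The promoters of 5 members are shown first, since, of the called members whose log2 CPM averaged 2 or more and whose replicates did not overlap, they had the 3 largest rises, or the only fall, from 0 h to 24 h in wt cells or KO#1: Ndufb2, Uqcr11, Cox7c and Atp5l, which are in different complexes and rose, and Cox6b2, which fell, a call that was lost without 1 library, as given with its values below. Each window runs from 250 bases before the start of transcription to 50 bases after it, from RefSeq on GRCm38.p6, on the strand of the gene. RefSeq windows were matched for 65 of the 79 members, 3 of them through an older symbol. Capitals mark a match, on either strand, to the core letters of sites known for nuclear genes of the respiratory chain: GCATGCGC for NRF1, CCGGAAGT for ETS factors such as GABP, AAGATGGCG for YY1, TCAAGGTCA for ERR and TGACGTCA for CREB, and GGGCGGGG for SP factors. No marked match overlaps another. The windows are Ndufb2 (chr6:39592315-39592614, plus strand), Uqcr11 (chr10:80406772-80407071, minus strand), Cox7c (chr13:86046746-86047045, minus strand), Atp5l (chr9:44920693-44920992, minus strand) and Cox6b2 (chr7:4753045-4753344, minus strand).
Ndufb2: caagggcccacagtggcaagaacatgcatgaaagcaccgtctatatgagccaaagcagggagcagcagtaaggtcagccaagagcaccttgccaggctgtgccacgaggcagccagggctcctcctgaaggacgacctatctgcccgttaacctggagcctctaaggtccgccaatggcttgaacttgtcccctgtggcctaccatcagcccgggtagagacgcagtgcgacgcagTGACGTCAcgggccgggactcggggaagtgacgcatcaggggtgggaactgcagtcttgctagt
Uqcr11: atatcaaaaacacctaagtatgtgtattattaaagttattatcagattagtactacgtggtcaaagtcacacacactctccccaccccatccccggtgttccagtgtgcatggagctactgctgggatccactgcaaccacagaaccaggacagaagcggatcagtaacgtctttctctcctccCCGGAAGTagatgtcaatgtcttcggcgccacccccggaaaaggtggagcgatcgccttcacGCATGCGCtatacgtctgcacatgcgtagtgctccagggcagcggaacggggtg
Cox7c: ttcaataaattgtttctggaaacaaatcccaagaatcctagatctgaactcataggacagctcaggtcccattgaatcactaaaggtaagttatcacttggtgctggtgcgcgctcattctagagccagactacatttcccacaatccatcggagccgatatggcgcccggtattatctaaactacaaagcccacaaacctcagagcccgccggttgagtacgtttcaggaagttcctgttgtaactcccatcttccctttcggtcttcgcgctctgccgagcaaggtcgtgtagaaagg
Atp5l: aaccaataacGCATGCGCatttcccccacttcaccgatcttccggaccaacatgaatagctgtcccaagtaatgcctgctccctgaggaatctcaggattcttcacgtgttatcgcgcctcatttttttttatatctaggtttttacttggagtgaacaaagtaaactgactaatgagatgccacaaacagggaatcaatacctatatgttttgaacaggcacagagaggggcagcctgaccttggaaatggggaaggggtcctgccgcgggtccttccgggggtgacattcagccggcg
Cox6b2: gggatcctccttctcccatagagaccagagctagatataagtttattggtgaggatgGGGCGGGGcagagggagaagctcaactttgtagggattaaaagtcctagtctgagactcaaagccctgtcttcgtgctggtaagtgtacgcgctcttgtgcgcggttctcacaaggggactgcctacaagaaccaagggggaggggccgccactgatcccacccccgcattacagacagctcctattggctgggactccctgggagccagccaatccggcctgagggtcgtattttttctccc

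The Ndufb2 window holds the CREB letters 14 to 7 bases before the start. The Uqcr11 window holds the ETS letters 66 to 59 bases before the start and the NRF1 letters across it. The NRF1 letters of the Atp5l window lie far upstream, 240 to 233 bases before the start, and in the window of Cox7c none of these letters were found. In the window of Cox6b2 only the SP letters were found. Over the 65 members with a window, the NRF1 letters occurred in 9 (13.8%), against 5.84% of 10496 other coding genes tested and 2.71% of all 32851 windows. For YY1 the count was 8 (12.3%, against 3.26% and 1.40%), with 5 of the 8 genes in complex I and 3 in complex V. For the CREB letters it was 4 (6.15%, against 3.48% and 1.79%), for ERR 1 (1.54%, against 0.333% and 0.423%), and for ETS 5 (7.69%, against 8.45% and 3.89%). The SP letters occurred in 12 (18.5%), against 37.1% and 17.6%. A match is a description of the letters only. On GRCm38, the genes of the named members span chr6:39592574-39603382 for Ndufb2, chr10:80402997-80406830 for Uqcr11, chr13:86044816-86046904 for Cox7c, chr9:44912557-44920742 for Atp5l, chr7:4751792-4753094 for Cox6b2, chr1:63143596-63176833 for Ndufs1, chr7:3617373-3620327 for Ndufa3, chr5:145183698-145192062 for Atp5j2, chr7:25619414-25625551 for Atp5sl and chr10:127514967-127517154 for Ndufa4l2. Counts were given per gene, so that no exon of these is singled out. By this annotation 36 of the 79 members overlap another gene.

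From 0 h to 24 h in wt cells, most members rose, in all 4 complexes. Of the 78 members with enough counts to be tested (Cox8c, a testis copy, was not), 56 rose, at an adjusted p-value under 0.05 (edgeR quasi-likelihood test, Benjamini-Hochberg over all 16619 genes tested). Over all genes tested, 26.0% rose. Ndufa4l2 and Cox6b2 fell, while 24.7% of all genes did. The median log2 fold change was 1.05 over the members and 0.03 over all genes. Of the members whose log2 CPM averaged 2 or more and whose replicates did not overlap, the largest rises were those of Cox7c (5.06-fold), Uqcr11 (4.64-fold) and Atp5l (4.11-fold), short accessory subunits of complexes IV, III and V. The low-level Cox7b2 rose by 2.53 on the log2 scale, which is more. The replicates of 24 h lay above all those of 0 h in 59 members, against 30.2% of all genes. These counts rest on the scaling of the libraries, since with library sizes alone 17 members rose and 3 fell, against 9.55% and 35.2% of all genes. That setting moved the median of all genes to -0.58 and that of the members to 0.42, so that the members stood 1.00 above all genes, against 1.05 and 0.03 with TMM factors.

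**Figure D1:**
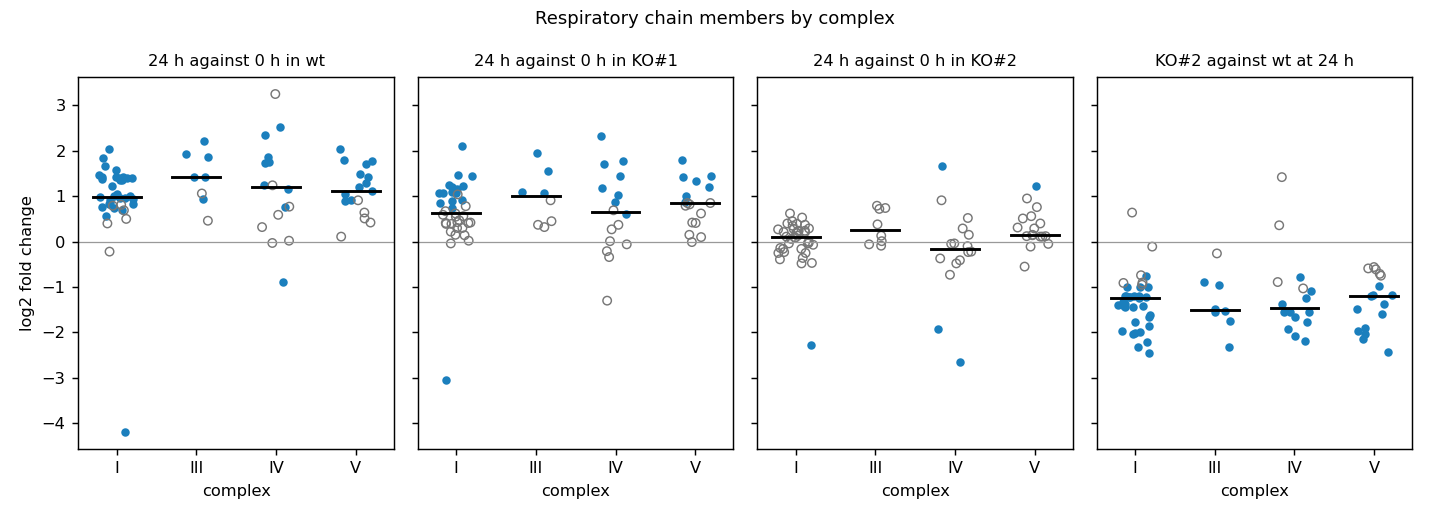
Log2 fold change of each tested member, by complex, from 0 h to 24 h in wt cells, KO#1 and the libraries labelled KO#2, and between the latter and wt cells at 24 h. Filled points passed the adjusted p-value of 0.05 in edgeR, open points did not, and the black lines are medians. In wt cells the medians lie between 0.99 and 1.43, and in the comparison at 24 h between -1.51 and -1.19.

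A measure that needs no scaling factors, but depends on its denominator, is the share of a library's counts in nuclear coding genes that fell on members. In wt cells it was 1.03% to 1.43% at 0 h and 1.75% to 1.89% at 24 h, with no overlap. In KO#1 it was 1.23% to 1.82% and 1.74% to 1.99%, which overlapped. For the libraries labelled KO#2 the shares were 0.817% to 1.24% and 0.808% to 1.14%, and those of 24 h were below each wt and KO#1 library of that time. At 24 h the share averaged 1.81% for wt, 1.85% for KO#1 and, where libraries were labelled KO#2, 1.02%. Relative to the total of a library, with all kinds of gene counted, the groups overlapped at 24 h. Summed over members, wt libraries then had 7335 to 10939 CPM, those of KO#1 7417 to 10860 CPM and those labelled KO#2 6565 to 9589 CPM, so the order of the groups depends on the denominator.

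**Figure D2:**
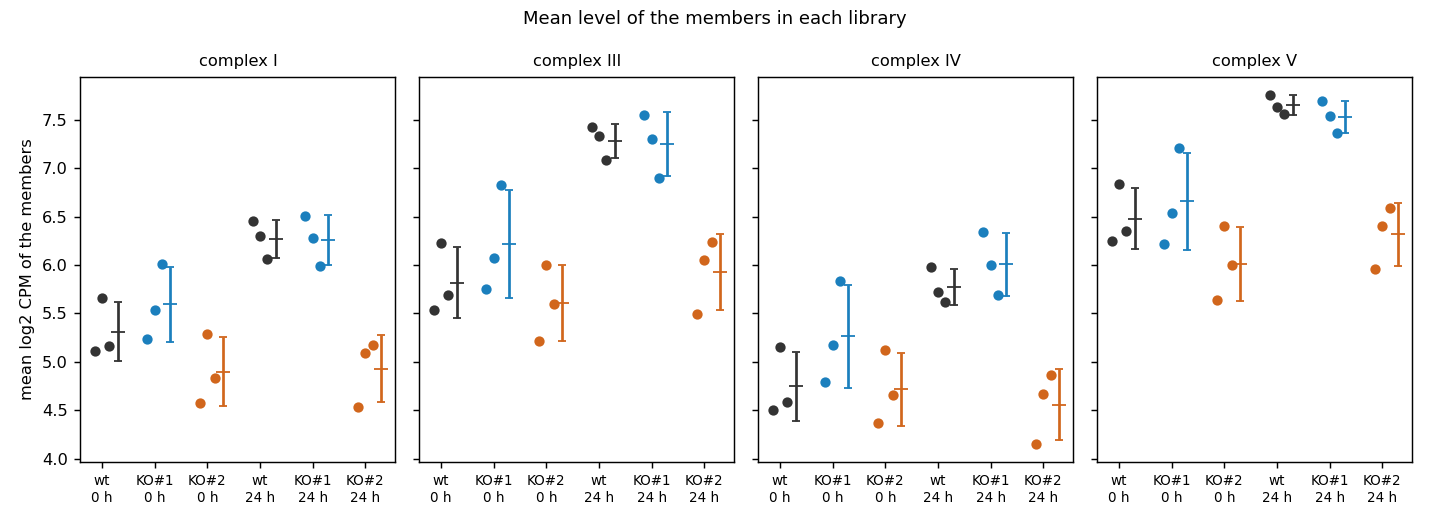
Mean log2 CPM of the members of each complex in each library (points), with the mean and SD of the 3 libraries of a group at the right of the points. In wt cells the complex I mean went from 5.11, 5.66 and 5.16 at 0 h to 6.45, 6.30 and 6.06 at 24 h, and in the libraries labelled KO#2 it stood at 4.58, 5.29 and 4.83 and then at 4.53, 5.09 and 5.17.

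In complex I, as assigned by symbol, 30 of 37 members rose in wt cells and 1 fell (Ndufa4l2, placed here by its name only), with a median log2 fold change of 0.99. Ndufs1, the largest catalytic subunit, which carries iron-sulfur clusters in the arm that meets NADH, stood at 29.2, 46.3 and 32.3 CPM in wt cells at 0 h and at 111, 119 and 92.7 CPM at 24 h. Every library of 24 h was above those of 0 h, a log2 fold change of 1.58 (SE 0.25, adjusted p = 7.76e-05, edgeR). In KO#1, Ndufs1 went from 37.3, 52.4 and 52.2 CPM to 116, 102 and 79.5 CPM, which also passed the test (1.07, adjusted p = 0.00258, edgeR). Ndufs1 levels of 70.2, 96.1 and 80 CPM at 0 h and 77.8, 97.1 and 125 CPM at 24 h were found in the libraries labelled KO#2. They were thus already high at 0 h, when they stood above each wt library, and the change over time did not pass the test (0.28, adjusted p = 0.419, edgeR). Ndufs1 overlaps Eef1b2 on the other strand, and whether strand was used in the counting is not given in the sources used here.

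Ndufv1, the subunit that binds NADH and FMN, changed less. It had 122, 131 and 119 CPM in wt cells at 0 h and 180, 177 and 195 CPM at 24 h, a rise by 0.57 on the log2 scale (SE 0.21, adjusted p = 0.0354, edgeR) that turned to -0.04 with library sizes alone and did not pass when any 1 of the 6 libraries was left out (0.47 to 0.61). In KO#1 it had 155, 150 and 189 CPM and then 156, 136 and 188 CPM, and in the libraries labelled KO#2 it had 65.3, 97.8 and 90.1 CPM and then 73.0, 99.0 and 104 CPM. Neither KO line passed the test over time. Ndufs7, which holds the last cluster before ubiquinone, had 47.9, 39.7 and 36.0 CPM in wt cells at 0 h and 59.0, 69.5 and 70.3 CPM at 24 h, and it rose by 0.69 (SE 0.20, adjusted p = 0.00952, edgeR). It had 39.9, 46.4 and 54.4 CPM and then 55.6, 63.8 and 69.5 CPM in KO#1, and 21.9, 28.4 and 23.3 CPM and then 22.8, 29.6 and 33.0 CPM in the libraries labelled KO#2. All 3 of the latter were below every other library at each time, but with offsets for GC content the difference from wt cells at 0 h was 0.08 in place of -0.74. The rise of Ndufs7 in wt cells did not pass without replicate 3 of 0 h (0.60).

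Ndufb2 and Ndufa3 are accessory subunits of the membrane arm of complex I. Ndufb2 had 13.1, 32.3 and 20.7 CPM in wt cells at 0 h and 91.7, 112 and 72.5 CPM at 24 h (log2 fold change 2.04, SE 0.39, adjusted p = 0.000421, edgeR). KO#1 gave nearly the same picture, with 12.1, 19.2 and 33.7 CPM and then 111, 105 and 65.1 CPM (2.10, adjusted p = 0.000556, edgeR). Ndufb2 in the libraries labelled KO#2 had 9.47, 17.9 and 13.4 CPM and then 11.7, 21.8 and 22.2 CPM, and the time points overlapped. Ndufa3 had 34.1, 43.2 and 27.3 CPM in wt cells and then 106, 98.9 and 74.9 CPM, and 24.0, 31.1 and 57.1 CPM in KO#1 and then 131, 108 and 70.2 CPM. The libraries labelled KO#2 had 12.5, 29.9 and 17.5 CPM and then 10.8, 21.1 and 18.9 CPM. Ndufa3 thus rose in wt cells and KO#1 (1.42 and 1.45) and had a log2 fold change of -0.23 in the libraries labelled KO#2, which did not pass the test. Ndufb2 and Ndufa3 each overlap another gene on the other strand (Braf and Tfpt).

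In complex III, 6 of 8 members rose in wt cells and none fell, with the highest median of the 4 complexes (1.43). Uqcr11, the smallest subunit, had 37.4, 69.8 and 36.9 CPM in wt cells at 0 h and 257, 202 and 212 CPM at 24 h (log2 fold change 2.21, SE 0.38, adjusted p = 0.00016, edgeR). It went from 33.9, 44.9 and 100.0 CPM to 287, 235 and 182 CPM in KO#1 (1.96, adjusted p = 0.000666, edgeR), and from 17.8, 33.8 and 26.1 CPM to 32.7, 47.8 and 53.6 CPM in the libraries labelled KO#2 (0.79, adjusted p = 0.121, edgeR). At 24 h every library labelled KO#2 was below each of the other 6. Uqcrfs1, the Rieske iron-sulfur protein, had 52.8, 61.3 and 48.5 CPM in wt cells and then 129, 90.6 and 91.7 CPM, and it rose by 0.94 (SE 0.24, adjusted p = 0.00414, edgeR). In KO#1 it had 55.9, 54.1 and 86.6 CPM and then 102, 85.2 and 81.1 CPM, and in the libraries labelled KO#2 45.4, 64.9 and 44.5 CPM and then 47.5, 52.7 and 68.8 CPM, with overlap over time in both. Uqcrc1, a long core protein, did not pass the test over time in any line. It had 302, 204 and 211 CPM and then 253, 343 and 388 CPM in wt cells, 291, 319 and 238 CPM and then 282, 366 and 450 CPM in KO#1, and 153, 208 and 182 CPM and then 153, 166 and 190 CPM in the libraries labelled KO#2.

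In complex IV, 8 of 16 tested members rose in wt cells and 1 fell, with a median of 1.19. Cox7c had 45.3, 168 and 92.2 CPM in wt cells at 0 h and 594, 536 and 424 CPM at 24 h (log2 fold change 2.34, SE 0.49, adjusted p = 0.000826, edgeR). The replicates of 0 h were spread widely, yet none reached those of 24 h. In KO#1 it had 80.8, 108 and 263 CPM and then 974, 755 and 532 CPM (2.32, adjusted p = 0.00134, edgeR), and in the libraries labelled KO#2 60.7, 127 and 94.4 CPM and then 104, 184 and 241 CPM (0.91, adjusted p = 0.164, edgeR). Cox5a, which with Cox4i1 is among the nuclear subunits that join first, had 106, 129 and 99.6 CPM in wt cells and then 137, 140 and 139 CPM. It had 151, 144 and 259 CPM and then 163, 152 and 164 CPM in KO#1, and 94.6, 143 and 97.0 CPM and then 69.9, 84.0 and 87.0 CPM in the libraries labelled KO#2. Cox5a did not pass the test over time in any line, and its log2 fold changes were 0.32, -0.21 and -0.48.

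In complex V, 12 of 17 members rose in wt cells and none fell, with a median of 1.12. Atp5l, subunit g of the membrane part, had 43.0, 86.8 and 44.1 CPM in wt cells and then 277, 245 and 196 CPM (log2 fold change 2.04, SE 0.46, adjusted p = 0.00148, edgeR). It had 40.8, 47.4 and 122 CPM and then 324, 242 and 170 CPM in KO#1 (1.80, adjusted p = 0.00479, edgeR), and 17.7, 45.6 and 31.9 CPM and then 32.3, 70.0 and 82.1 CPM in the libraries labelled KO#2 (0.95, adjusted p = 0.123, edgeR). Atp5j2, subunit f, had 92.8, 182 and 103 CPM in wt cells and then 355, 292 and 281 CPM. In KO#1 it had 66.3, 95.8 and 149 CPM and then 330, 258 and 203 CPM, and in the libraries labelled KO#2 35.5, 66.9 and 54.1 CPM and then 40.1, 60.5 and 71.9 CPM. It rose in wt cells and in KO#1 (1.29 and 1.34), and the libraries labelled KO#2 were low at both times and overlapped between them (0.14).

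Atp5o, the stalk subunit that holds the catalytic head, had 142, 163 and 133 CPM in wt cells and then 282, 300 and 242 CPM, a rise by 0.91 (SE 0.25, adjusted p = 0.00609, edgeR). It had 121, 175 and 201 CPM and then 251, 212 and 204 CPM in KO#1, and 95.0, 163 and 116 CPM and then 91.6, 130 and 140 CPM in the libraries labelled KO#2. Neither KO line passed the test. Atp5b, the catalytic beta subunit, was the member with the highest CPM in every group. It had 1012, 1290 and 1399 CPM in wt cells and then 1472, 1724 and 2058 CPM, 1420, 1354 and 2216 CPM and then 1288, 1581 and 2082 CPM in KO#1, and 807, 1161 and 977 CPM and then 881, 1040 and 1281 CPM in the libraries labelled KO#2. The wt replicates did not overlap, but the log2 fold change of 0.51 did not pass the test (adjusted p = 0.14, edgeR). Atp5sl had 24.6, 22.2 and 23.8 CPM in wt cells and then 34.7, 45.6 and 51.2 CPM, and 15.5, 15.7 and 24.1 CPM in KO#1 and then 30.5, 43.8 and 53.9 CPM. Its levels in the libraries labelled KO#2 were 7.60, 9.08 and 8.15 CPM and then 19.1, 16.0 and 23.2 CPM. It was 1 of the 2 members that rose in all 3 lines (log2 fold changes 0.90, 1.2 and 1.23), the other being Cox7b2.

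Several subunits of complexes IV and V, and Ndufa4, have copies that are used in particular tissues. The widely used copies rose over time in wt cells, except Cox6a1, Cox7a2l and Cox7b. Cox4i1 had 241, 263 and 243 CPM in wt cells and then 428, 371 and 467 CPM, 369, 366 and 417 CPM in KO#1 and then 600, 520 and 636 CPM, and 120, 192 and 134 CPM in the libraries labelled KO#2 and then 111, 160 and 161 CPM. At both times all KO#1 libraries stood above the wt libraries and all libraries labelled KO#2 below them. Its log2 fold change over time was 0.76 in wt cells and 0.61 in KO#1, and the latter was -0.17 with library sizes alone. The rise in wt cells did not pass without replicate 3 of 24 h (0.63), nor that in KO#1 in 5 of 6 cases of 1 library left out (0.53 to 0.68 over the 6). Cox4i2, the copy of lung and hypoxic cells, had at most 0.588 CPM in any library and is at the limit of these counts. Cox6b1 had 90.9, 129 and 86.8 CPM in wt cells and then 305, 202 and 217 CPM, 96.4, 136 and 191 CPM in KO#1 and then 383, 265 and 213 CPM, and 36.0, 74.2 and 56.1 CPM in the libraries labelled KO#2 and then 37.6, 58.9 and 63.7 CPM. It rose in wt cells (1.24) and in KO#1 (1.03), where the call was lost without replicate 1 or 2 of 0 h or replicate 1 of 24 h (0.81, 0.98 and 0.75).

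Cox6b2, the testis copy of this subunit, went the other way. It had 42.0, 22.7 and 18.7 CPM in wt cells at 0 h and 15.3, 15.6 and 13.3 CPM at 24 h, a fall by 0.89 on the log2 scale (SE 0.27, adjusted p = 0.0122, edgeR). This call rests on wt replicate 1 of 0 h, the smallest library, without which the value was -0.53 (adjusted p = 0.0988, edgeR), and with offsets for GC content it was -0.55 and did not pass. It had 12.4, 14.2 and 19.0 CPM and then 11.6, 11.5 and 12.9 CPM in KO#1, and 9.87, 13.5 and 11.1 CPM and then 6.95, 8.17 and 5.65 CPM in the libraries labelled KO#2. Of the wt libraries of 0 h, 1 stood well above the rest and another overlapped KO#1, and the log2 fold changes in the KO lines (-0.34 and -0.73) did not pass the test. Ndufa4l2 fell in all 3 lines. It had 5.90, 7.99 and 9.76 CPM in wt cells and then 0.763, 0.301 and 0.185 CPM, 2.61, 7.10 and 1.75 CPM in KO#1 and then 0.294, 0.511 and 0.498 CPM, and 4.92, 1.62 and 3.36 CPM in the libraries labelled KO#2 and then 0.836, 0.503 and 0.695 CPM. The log2 fold changes were -4.19, -3.04 and -2.28 (adjusted p = 3.28e-05, 0.00101 and 0.00458, edgeR). The gene overlaps Shmt2 on the other strand. Its common relative Ndufa4 had 30.2, 101 and 44.3 CPM in wt cells and then 230, 191 and 138 CPM, 48.6, 65.1 and 121 CPM in KO#1 and then 238, 189 and 123 CPM, and 34.3, 79.9 and 51.4 CPM in the libraries labelled KO#2 and then 46.3, 81.1 and 86.7 CPM. Ndufa4 rose in wt cells and KO#1 (1.66 and 1.22), the latter lost without replicate 1 or 2 of 0 h or replicate 1 or 2 of 24 h (0.97, 1.09, 0.98 and 1.18).

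**Figure D3:**
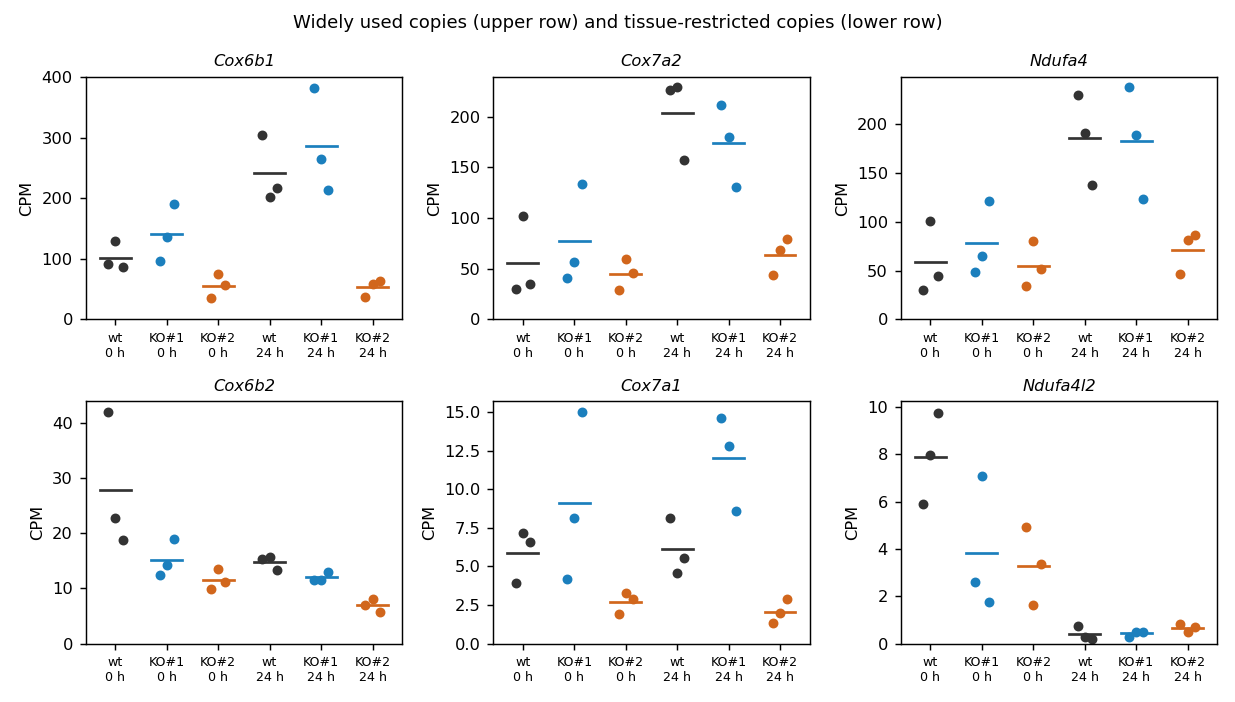
CPM (scaled by TMM factors) of 3 widely used subunit genes and of their tissue-restricted relatives in each library (points), with the group mean as a line. Cox6b1, Cox7a2 and Ndufa4 lie higher at 24 h than at 0 h in wt cells, Cox6b2 and Ndufa4l2 lie lower, and Cox7a1 stands at 4.61 to 8.15 CPM in wt cells at 24 h against 3.94 to 7.16 CPM at 0 h.

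The heart and muscle copies Cox7a1 and Cox6a2 differed between the lines. Cox7a1 had 3.94, 7.16 and 6.59 CPM in wt cells and then 8.15, 4.61 and 5.56 CPM, 4.17, 8.14 and 15.0 CPM in KO#1 and then 14.6, 12.8 and 8.59 CPM, and 1.91, 3.28 and 2.88 CPM in the libraries labelled KO#2 and then 1.36, 1.97 and 2.87 CPM. It was lower in the libraries labelled KO#2 than in wt cells at 0 h (log2 fold change -1.17, adjusted p = 0.0364, edgeR) and at 24 h (-1.56, adjusted p = 0.00762, edgeR), and no change over time passed the test. The call at 0 h was lost without wt replicate 2 or 3 or KO#2 replicate 1 or 3 (-1.02, -1.10, -0.97 and -1.22). Its common relative Cox7a2 had 29.5, 102 and 35.3 CPM in wt cells and then 226, 229 and 157 CPM, 40.7, 56.2 and 134 CPM in KO#1 and then 212, 180 and 131 CPM, and 28.5, 59.1 and 45.9 CPM in the libraries labelled KO#2 and then 43.5, 68.5 and 79.7 CPM. Cox7a2l, which helps to join complexes III and IV, had 78.7, 138 and 121 CPM in wt cells and then 217, 156 and 137 CPM. It had 68.8, 84.6 and 114 CPM in KO#1 and then 205, 102 and 126 CPM, and 69.3, 109 and 75.3 CPM in the libraries labelled KO#2 and then 56.2, 73.7 and 85.4 CPM. Cox7a2 rose in wt cells (1.86) and in KO#1. The latter call was lost without replicate 1 or 2 of 0 h or replicate 1 or 2 of 24 h (0.87, 0.98, 1.0 and 1.14). Cox7a2l overlapped between the time points in each line.

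Cox6a2 had 0 counts in each wt library of 0 h, and 3.00, 1.88 and 1.46 CPM in KO#1 and 1.22, 1.98 and 0.671 CPM in those labelled KO#2. At 24 h its level was 0.0587, 0.100 and 0.0618 CPM in wt cells, which is 1 count in each library, 1.40, 0.920 and 0.249 CPM in KO#1 and 0.0523, 0.271 and 0.261 CPM in the libraries labelled KO#2. At 0 h, against the mean floor of 3 counts per wt library, Cox6a2 was at least 4.20-fold higher in KO#1. For libraries with the KO#2 label the bound was 2.56-fold. Both differences were called (adjusted p = 0.00137 and 0.00114, edgeR). However, Cox6a2 had enough counts to be tested only through KO libraries, where its level was high. These p-values are therefore not independent of how the gene came to be tested, and the bounds are the safer reading. The gene overlaps Itgad on the other strand. A list of 6 muscle genes had summed levels of 0.417 to 0.826 CPM in wt cells, 0.992 to 1.96 CPM in KO#1 and 2.23 to 3.60 CPM in the libraries labelled KO#2 at 0 h, with Myod1, Myog and Ckm at 3 counts or fewer in each of these libraries. Of its 4 tested genes 3 were higher in the libraries labelled KO#2 than in wt cells and none in KO#1, and the part of other cell types in the level of Cox6a2 was not tested. Cox6a1, the common copy, had 249, 150 and 117 CPM in wt cells and then 164, 175 and 164 CPM, 160, 232 and 156 CPM in KO#1 and then 193, 191 and 168 CPM, and 66.8, 112 and 80.1 CPM in the libraries labelled KO#2 and then 53.0, 70.0 and 71.7 CPM.

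Cox8a, the common copy of subunit VIII, had 82.0, 143 and 118 CPM in wt cells and then 449, 388 and 304 CPM, 81.6, 115 and 192 CPM in KO#1 and then 537, 469 and 277 CPM, and 76.7, 126 and 96.9 CPM in the libraries labelled KO#2 and then 73.4, 110 and 148 CPM. It rose in wt cells and KO#1 alike in size (1.73 and 1.72). Cox8c was at most 0.409 CPM in any library. Cox7b2, a copy of Cox7b at a low level, had 1.31, 1.10 and 0.417 CPM in wt cells and then 6.10, 5.21 and 3.64 CPM, 0, 0.418 and 1.46 CPM in KO#1 and then 3.31, 3.07 and 1.56 CPM, and 1.34, 2.25 and 2.45 CPM in the libraries labelled KO#2 and then 5.02, 4.91 and 9.21 CPM. It rose in each line (log2 fold changes 2.53, 1.78 and 1.66, adjusted p = 0.00379, 0.0322 and 0.0304, edgeR), and it was named after its values were seen. The rise in KO#1 did not pass without replicate 1 or 2 of either time (1.27, 1.59, 1.56 and 1.65), nor that in the libraries labelled KO#2 without any 1 library of 0 h (1.44, 1.76 and 1.83) or replicate 3 of 24 h (1.31).

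The genes Atp5g1, Atp5g2 and Atp5g3 encode the same mature subunit c of the rotor. Atp5g1 had 133, 131 and 88.6 CPM in wt cells and then 428, 402 and 383 CPM, 124, 164 and 247 CPM in KO#1 and then 406, 352 and 312 CPM, and 56.7, 105 and 83.8 CPM in the libraries labelled KO#2 and then 81.1, 121 and 123 CPM. Atp5g2 had 98.1, 159 and 133 CPM in wt cells and then 435, 513 and 397 CPM, 104, 128 and 242 CPM in KO#1 and then 453, 489 and 328 CPM, and 62.4, 136 and 83.5 CPM in the libraries labelled KO#2 and then 66.0, 107 and 131 CPM. Atp5g3 had 62.0, 84.1 and 75.5 CPM in wt cells and then 191, 224 and 210 CPM, 64.8, 71.4 and 178 CPM in KO#1 and then 173, 201 and 197 CPM, and 52.8, 101 and 70.0 CPM in the libraries labelled KO#2 and then 62.2, 102 and 114 CPM. All 3 rose in wt cells (1.79, 1.78 and 1.49), Atp5g1 and Atp5g2 rose in KO#1 (1.00 and 1.42), and none passed the test over time in the libraries labelled KO#2 (0.40, 0.11 and 0.31). The rise of Atp5g1 in KO#1 was lost without replicate 1 of 0 h (0.79).

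In KO#1, 34 members rose from 0 h to 24 h, against 20.1% of all genes, and Ndufa4l2 fell, while 20.6% of all genes did. The median was 0.75 (0.62 in complex I, 0.99 in complex III, 0.65 in complex IV and 0.85 in complex V). All 34 had also risen in wt cells, and of the 56 that rose in wt cells 55 had a positive log2 fold change in KO#1. How often genes in general that rose in wt cells did so in the KO lines was not counted. Such overlap is thus not shown to be particular to the members. Fewer members were called in the libraries labelled KO#2: 2 members rose (Atp5sl and Cox7b2), against 12.7% of all genes, and 3 fell (Ndufa4l2, Cox6a2 and Cox4i2), against 13.3%. Cox4i2 had 3 counts or fewer in each library of 24 h, and against that floor it was at least 3.09-fold lower than at 0 h. Its call was lost when any 1 of the 6 libraries was left out (adjusted p = 0.0733 to 0.118, edgeR). The median there was 0.12, and 43 of the 56 members that rose in wt cells had a positive value. The KO#1 count of 35 called members was 17 without KO#1 replicate 1 of 0 h, 19 without KO#1 replicate 2 of 0 h and 17 without KO#1 replicate 1 of 24 h. With library sizes alone, 3 members rose and 5 fell in KO#1, against 5.04% and 39.1% of all genes, and the median was -0.07 over the members and -0.78 over all genes. The KO#2 count of 5 was 3 when replicate 1, 2 or 3 of 0 h or replicate 3 of 24 h was left out. Over all genes, 7.45% to 9.96% then rose and 7.11% to 11.4% fell.

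The difference of the responses was tested directly. For KO#1 minus wt cells, no member passed the edgeR test, against 0.391% of all genes. DESeq2 called none either, against 0.691% of all genes higher and 0.313% lower. An unadjusted p under 0.05, not set against all genes here, was found for 1 member. The median difference was -0.29 over the members and -0.04 over all genes, and it was negative in 67 of 78 members. Without KO#1 replicate 3 of 0 h the median of the members was -0.02. For the libraries labelled KO#2 minus wt cells, no member passed the edgeR test either, against 1.47% of all genes, but 40 members had an unadjusted p under 0.05 with a smaller response and 1 with a larger, against 1837 and 2083 of all 16619 genes. DESeq2 called 12 lower (all genes 1.73%), and edgeR called 20 lower without a filter on low counts (all genes 2.74%), 2 with the replicate number as a block (1.25%), and 3 with the block and offsets for GC content (1.92%). The median difference was -1.01 (all genes -0.02), negative in 74 of 78 members, and by complex, from I to V, it was -0.97, -1.13, -1.27 and -0.97. The edgeR count was 2 lower without wt replicate 2 of 0 h and 1 lower without KO#2 replicate 3 of 24 h, against 1.12% and 0.99% of all genes.

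Between the lines, KO#1 hardly differed from wt cells in counts of called members. At 0 h, 1 member was higher in KO#1 (Cox6a2, tested only through its KO counts), against 3.99% of all genes. None was lower, against 2.68%. DESeq2 called 3 higher and 1 lower, against 2.91% and 2.24% of all genes, so these counts were near the background. Unadjusted p-values under 0.05, not set against all genes here, were found for 8 members with a higher and 2 with a lower level. At 24 h, 1 member was higher (Cox6a2 again, with 1 count in each wt library), against 6.25% of all genes, and none was lower, against 3.61%. DESeq2 called 1 higher and none lower, against 4.57% and 2.73%. Unadjusted p-values under 0.05, again not set against all genes, were found for 2 members with a higher and 0 with a lower level. The medians were 0.32 at 0 h and -0.03 at 24 h, and without KO#1 replicate 3 the median at 0 h was 0.02. The count was 2 at 0 h without wt replicate 1, wt replicate 3 or KO#1 replicate 2, and 0 at 24 h without wt replicate 1, wt replicate 3 or KO#1 replicate 1. Over all genes, 2.06% to 3.43% were then higher and 1.4% to 2.16% lower at 0 h. At 24 h these shares were 3.82% to 5.19% and 2.18% to 2.3%.

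The libraries labelled KO#2 differed from wt cells at both times, and far more members did so at 24 h. At 0 h, 21 members were lower, against 16.6% of all genes. Another 2 were higher (Ndufs1 and Cox6a2, the latter with the limit given above), against 21.5%. The median was -0.43 over the members and 0.10 over all genes. The lower members with the largest differences were Atp5sl (log2 fold change -1.50, SE 0.25, adjusted p = 0.000382), Atp5j2 (-1.27, SE 0.34, adjusted p = 0.00839) and Cox6b2 (-1.25, SE 0.28, adjusted p = 0.00263), all from edgeR, and their values above show no overlap with wt cells. Atp5j2 did not pass without wt replicate 2 (-0.90). Ndufs1 was 2.27-fold higher (SE 0.25 on the log2 scale, adjusted p = 0.00173, edgeR). The count of 23 called members was 15 without wt replicate 1, 13 without wt replicate 2, 15 without wt replicate 3, 11 without KO#2 replicate 1 and 12 without KO#2 replicate 3. All genes lost calls as well, with 14.5% to 18.3% higher and 10.9% to 14.2% lower in these fits. Offsets for transcript length gave more calls, 38 lower and 2 higher, against 18.7% and 21.9% of all genes. Among coding genes under 2000 bases alone, the shares were near or under the background, with 8 of 71 members lower and 2 higher, against 12.9% and 16.2% of the genes there, and the median was -0.12. With library sizes alone 4 members were higher and 1 lower, against 29.9% and 3.2% of all genes, in a setting that moved the median of all genes to 0.54 and that of the members to 0.02. In the same comparison 5 of 10 fibroblast genes were higher in the libraries labelled KO#2 and none was lower, among them Lox (2.37), while the summed level of the list was 726 to 2693 CPM against 2117 to 4089 CPM in wt cells. Dcn and Lum were at 3 counts or fewer in each wt library. The part of these genes' cells in the members' levels was not tested.

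At 24 h, 62 members were lower in the libraries labelled KO#2 than in wt cells, against 16.0% of all genes, and none was higher, against 21.3%. No member had a higher level at an unadjusted p under 0.05, and DESeq2 called 63 lower and none higher, against 10.1% and 12.9% of all genes. The 21 members lower at 0 h were among them. The wt libraries of 24 h also enter the response of wt cells over time, and those of each time enter the comparisons of both KO lines, so that these comparisons share libraries. By complex, 31 of 37 members of complex I were lower (median -1.24), 7 of 8 of complex III (-1.51), 12 of 16 of complex IV (-1.46) and 12 of 17 of complex V (-1.19). The largest differences were those of Ndufa3 (5.51-fold lower, adjusted p = 0.000119, edgeR), Atp5j2 (5.38-fold, adjusted p = 7.59e-05, edgeR) and Uqcr11 (5.01-fold, adjusted p = 0.000186, edgeR). In 66 members the libraries labelled KO#2 all lay below the wt libraries, against 22.4% of all genes. Among the subunits described above, Cox4i1 (-1.55), Ndufs7 (-1.22), Atp5o (-1.19), Ndufv1 (-1.0), Uqcrc1 (-0.95), Uqcrfs1 (-0.88) and Cox5a (-0.79) were lower, and Atp5b (-0.71, adjusted p = 0.0535) and Ndufs1 (-0.11, adjusted p = 0.75) did not pass the edgeR test. Without wt replicate 1 Uqcrfs1 (-0.71) and without KO#2 replicate 1 Cox5a (-0.69) did not pass either.

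These calls at 24 h moved with the scaling. With library sizes alone 16 members were lower and 4 higher, against 3.2% and 58.2% of all genes, the median of all genes was 1.24 and that of the members -0.31, which is 1.55 below all genes, as it was with TMM factors (-1.35 against 0.20). In that setting Cox5a (0.26), Uqcrfs1 (0.15), Uqcrc1 (0.09) and Ndufv1 (0.04) had the opposite sign. The share of counts in protein-coding genes differed between these groups, as given above, and with scaling and testing on protein-coding genes alone 62 members were lower and none higher, against 14.2% and 21.5% of the genes. At 24 h 7 of 10 fibroblast genes were higher in the libraries labelled KO#2 than in wt cells and none lower, with a summed level of 249 to 878 CPM against 185 to 237 CPM, and none at 3 counts or fewer throughout a group. Their part in the members' levels was not tested. Without 3 libraries chosen after their values were seen (wt replicate 1 of 0 h, with the smallest total, and replicate 2 of wt cells and of KO#1 at 24 h, with the lowest shares of coding counts), 55 members were lower at 24 h, against 11.9% of all genes. In the response of wt cells 29 then rose and 1 fell, against 14.2% and 16.8%, and at 0 h 9 were lower and 2 higher in the libraries labelled KO#2, against 8.51% and 13.0%.

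The members are short genes, and short genes in general moved the same way. The median transcript length was 759 bases over the tested members (371 to 2676) and 2886 bases over the tested coding genes. In wt cells, members under 750 bases had a median log2 fold change of 1.38 over time, those of 750 to 1499 bases 0.95 and those of 1500 to 2999 bases 0.66. The other coding genes of these lengths had medians of 1.21, 0.76 and 0.14, and those of 3000 bases or more had -0.37. Between the libraries labelled KO#2 and wt cells at 24 h, the members had -1.51, -1.23 and -0.97 in the same order, and the other coding genes -1.30, -0.70, -0.11 and, for the longest, 0.51. In KO#1 over time, the medians of the members were 0.90, 0.64 and 0.31 and those of the other coding genes 1.11, 0.55 and 0.10. There 55.3%, 37.5% and 25% of the members rose, against 55.2%, 34.8% and 20.9% of other coding genes of the same lengths, so the rises in KO#1 were about as frequent as among genes of their length. In wt cells 81.6%, 79.2% and 37.5% of the members of these lengths rose, against 58.5%, 45.6% and 27.9% of the other coding genes. There the gap in the share that rose was wider in both shorter classes, while the gap in the median was widest at 1500 to 2999 bases. By annotation that class holds Ndufb2 (2413 bases) and Atp5g1 (2675.5 bases), and the lengths expressed here were not checked. At 24 h 86.8%, 79.2% and 62.5% of the members were lower in the libraries labelled KO#2 than in wt cells, against 60% of the other coding genes under 750 bases, 43.3% of those of 750 to 1499 and 17.8% of those of 1500 to 2999. Across the 78 members the correlation of the log2 fold change with log2 length was -0.20 in wt cells (Spearman's rho -0.38) and 0.29 (rho 0.42) between the libraries labelled KO#2 and wt cells at 24 h, which describes genes that share libraries and are not replicates.

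**Figure D4:**
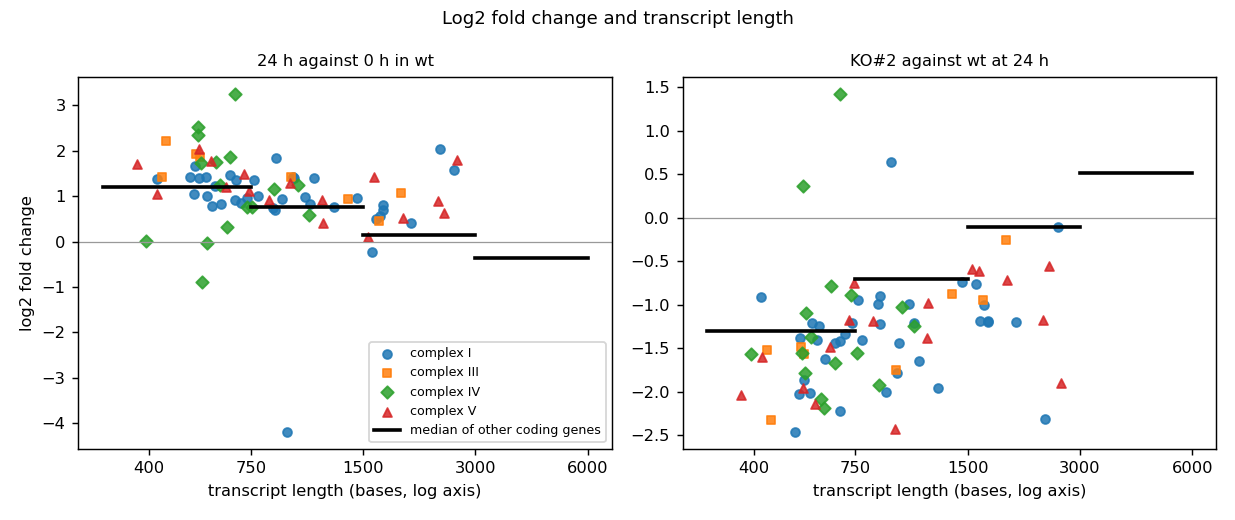
Log2 fold change of each tested member against the length of its principal transcript (log axis), from 0 h to 24 h in wt cells (left) and between the libraries labelled KO#2 and wt cells at 24 h (right). Black lines are medians of the other tested coding genes in the length classes under 750, 750 to 1499, 1500 to 2999 and 3000 or more bases, drawn between 300 and 6000 bases, and they go from 1.21 down to -0.37 on the left and from -1.30 up to 0.51 on the right.

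With offsets that remove the mean trend with length in each library, 29 members rose and 5 fell in wt cells (median 0.48), against 25.1% and 22.7% of all genes (median 0.05). In KO#1 14 rose and 5 fell (0.18), against 19.5% and 17.9% of all genes (0.01), so that the share of members that rose, 14 of 78, was near that of all genes. At 24 h 58 members were lower in the libraries labelled KO#2 (-0.97), against 14.5% of all genes (0.11). When only coding genes under 2000 bases were scaled and tested, an alternative added after the data were seen, 26 of 71 members rose and 4 fell in wt cells (0.44), against 22.7% and 24.1% of the genes tested there (0.00). In this setting 28 members were lower in the libraries labelled KO#2 at 24 h (-0.66) and none was higher, against 13.4% and 17.0% of the genes (0.15). Both settings thus left fewer called rises in wt cells. Both also left fewer calls at 24 h than the 62 of the main fit, the second by more.

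Levels per kilobase can be compared between genes only as far as the annotated transcript lengths hold, and which transcripts were expressed was not checked. Per kilobase, Atp5b stood highest in wt cells at 0 h (644 ± 104 CPM per kilobase, SD, n = 3), followed by Cox4i1 (330 ± 16.7), Cox6a1 (301 ± 120) and Atp5a1, the alpha subunit of the ATP synthase (276 ± 47.2), the last 3 of which do not differ beyond their spread. At 24 h the order in wt cells was Cox7c (959 ± 160), Atp5b (914 ± 153), Cox6c (791 ± 159), an accessory subunit of complex IV, and Atp5g2 (765 ± 101), and neighbours in this order do not differ beyond their spread. At that time Atp5b (557 ± 105) and Cox7c (327 ± 128) were the highest in the libraries labelled KO#2. The median member of complex V went from 127 to 322 CPM per kilobase in wt cells, that of complex IV from 114 to 244, that of complex III from 69.3 to 228 and that of complex I from 47.3 to 88.8. The same medians in the libraries labelled KO#2 went from 77.9 to 111, from 83.1 to 80.7, from 57.1 to 90.4 and from 35.6 to 38.0. Complex I thus had the lowest median level in each of these groups.

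Other genes of the pathway were counted from lists made with earlier results of these data known. Complex II, which feeds electrons from succinate and is wholly nuclear, had 3 of 4 genes risen in wt cells (Sdhd 1.58, Sdha 1.05 and Sdhb 0.90, with Sdhc at 0.31), and all 4 were lower in the libraries labelled KO#2 at 24 h. Cycs, the somatic cytochrome c, rose by 2.43 in wt cells, and Cyc1, the cytochrome of complex III, by 0.74, while the testis cytochrome Cyct (0.97) did not pass the test. In the lists of assembly factors, 7 of 14 genes rose in wt cells for complex I, 12 of 18 tested for complex IV (1 fell), 2 of 6 for complex III (1 fell) and 1 of 3 for complex V, where 26.0% of all genes rose and 24.7% fell. With 33.3% risen each, the short lists for complexes III and V were near that background. At 24 h 6, 11, 4 and 1 of them were lower in the libraries labelled KO#2, for complexes I, IV, III and V, and 1 of complex III was higher, against 16.0% and 21.3% of all genes. The list for complex I holds Ndufab1, the acyl carrier protein, which is itself a subunit of complex I that the symbol rule leaves out, and which is counted among those that rose (1.51) and those that were lower (-1.78). Proteins of the mitochondrial ribosome rose in 70 of 77 cases in wt cells (median 1.24), and 59 were lower in the libraries labelled KO#2 at 24 h (-1.05). For the cytosolic ribosome, 73 of 95 rose and 3 fell in wt cells (1.10), and 75 were lower and 3 higher at 24 h (-1.40).

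Of the 13 coding genes of the mitochondrial genome, 1 rose and 3 fell in wt cells (median 0.25), 4 rose and none fell in KO#1 (0.66), and 1 rose and none fell in the libraries labelled KO#2 (-0.39). The shares that rose or fell in wt cells, 7.69% and 23.1%, were not above the 26.0% and 24.7% of all genes. In KO#1 30.8% rose, against 20.1%, and in the libraries labelled KO#2 7.69%, against 12.7%. At 24 h 5 of them (38.5%) were lower in the libraries labelled KO#2 than in wt cells (-1.17), against 16.0% of all genes. Among 15 tested regulators of mitochondrial genes, 4 rose in wt cells (Tfam 0.93, Tfb2m 1.31, Hif1a 0.88 and Gabpa 0.59) and 5 fell (Esrrb -3.85, Ppargc1b -3.41, Pprc1 -1.95, Polrmt -1.04 and Yy1 -0.75). These are 26.7% and 33.3% of the list, against 26.0% and 24.7% of all genes, so the list as a whole moved about as often as genes in general. Tfam packs and transcribes mitochondrial DNA together with Tfb2m and the polymerase Polrmt, Gabpa is the ETS factor whose letters were searched above, and Ppargc1b and Pprc1 are coactivators of the NRF and ERR factors. Nrf1 (0.38) and Esrra (-0.12) did not pass the test. In the libraries labelled KO#2 at 24 h, Gabpa (1.01), Hif1a (0.68) and Epas1 (1.43) were higher than in wt cells and no regulator was lower, which is 3 of 15, near the 21.3% of all genes that were higher.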

How the data were processed

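RNA was measured in 18 libraries of mouse induced pluripotent stem cells. According to the study's methods, the authors prepared stranded total RNA libraries, trimmed the reads, removed ribosomal RNA, aligned with STAR to GRCm38 and quantified with Salmon and StringTie. The labels name DESeq2. The annotation release, the strand setting and the counting tool behind the table are not given in the sources used here. The authors deposited raw counts per gene, whole numbers that were not normalized, in 1 table with a column for each library, and 0 columns were left unused.

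Counts were filtered by filterByExpr (minimum count 10), scaled by TMM and fitted in edgeR 4.0.16 (R 4.3.3) with its quasi-likelihood test, in 1 model of the 6 groups that shares the estimate of spread, over 16619 genes. Benjamini-Hochberg adjusted p-values under 0.05 over all genes tested were called. The mean level of a complex used log2 CPM with a prior count of 2. Folds against groups at 3 counts or fewer were set against a floor of 3 counts per library. Transcript lengths, positions and gene types came from GENCODE M21, which held 45143 of the 45706 gene IDs, as the median over principal transcripts. No 2 libraries held identical values.

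The members and lists were chosen with earlier results of these data known. Values in every library were given for a few set subunits of each complex, for subunits with tissue copies, and for up to 3 called members per direction and comparison with the largest change, no overlap between replicates and an average log2 CPM of at least 2. Same-numbered libraries deviated together in wt cells and KO#1 at 24 h (correlations 0.480, 0.223 and 0.587), but not in every pair of groups, and the numbers were not taken as pairs in the test. Tested on simulated counts of 15521 genes for the response of wt cells, the test called 82.1% of 95 genes changed 4-fold and 6.5% of 92 changed 2-fold, with 5 false calls. Far more genes changed in the data, so the cutoff was stricter in the simulation and its rates do not describe the data. Alternatives were DESeq2 1.42.0, other scalings and filters, offsets for GC content and length (splines of 5 degrees of freedom), a replicate block, thinning to 3466436 counts and leaving out libraries. Figures were drawn with matplotlib 3.10.9 in Python 3.11.15. Totals of 3466436 to 23872837 counts set the precision of low genes.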

Additional observations from a re-analysis of the deposited data

How the results depend on the processing

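KO#2 below stands for the libraries labelled KO#2. DESeq2, RLE size factors, the replicate block and protein-coding genes alone called 58 to 62 members in wt cells over time, and 62 or 63 between the libraries labelled KO#2 and wt cells at 24 h, in the same directions. Of all genes in these settings, 15.4% to 26.8% rose and 14.8% to 28.2% fell in wt cells. At 24 h 10.1% to 16.8% were lower in KO#2. Over time in KO#2 the 2 higher and 3 lower members became 3 and 2 with DESeq2 and 2 and 2 with protein-coding genes alone. Values below are numbers of members called, in either direction, and where they moved the cause was not tested unless the setting itself tests fewer genes or samples. With library sizes alone, 20 were called in wt cells, 8 in KO#1, 5 between the libraries labelled KO#2 and wt cells at 0 h and 20 at 24 h. With offsets for length the numbers were 34 in wt cells, 19 in KO#1, 8 in KO#2, 2 between KO#1 and wt cells at 0 h and 40 between KO#2 and wt cells at 0 h (38 of them lower). Of all genes, 13.7% rose and 13.9% fell in KO#2 there, and 4.65% were higher and 3.17% lower in KO#1 at 0 h. With coding genes under 2000 bases they were 30, 18, 2 and 10 in wt cells, KO#1, KO#1 against wt and KO#2 against wt at 0 h, and 28 for KO#2 at 24 h. Of the genes tested there, 17.0% rose and 18.6% fell in KO#1, and 4.39% were higher and 3.9% lower in KO#1 at 0 h. Without the 3 libraries of doubt (chosen after seeing the data), they were 30 in wt cells, 2 and 11 for KO#1 and KO#2 at 0 h, and 0 for KO#1 at 24 h. With at least 10 counts in every library, 2 were called in KO#2 over time, 0 and 12 for KO#1 and KO#2 at 0 h, 0 for KO#1 at 24 h and 1 for the difference of responses of KO#2. Of the genes tested there, 10.7% rose and 16.2% fell in KO#2, and 23.0% were higher and 16.3% lower in KO#2 at 0 h. That difference gave 12 with DESeq2, 20 without a filter, 2 with the replicate block and 3 with GC offsets and the block, and GC offsets with the block gave 8 for KO#2 over time. Thinning gave 3 for KO#2 over time and 0 for KO#1 at 0 h and at 24 h, structural subunits alone gave 3 for KO#2 over time, DESeq2 gave 4 for KO#1 at 0 h, and a fit of only the groups compared gave 0 for KO#1 at 24 h.

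Leaving out 1 library gave 43 to 62 members in wt cells, 17 to 50 in KO#1 and 3 to 6 in KO#2 over time, 1 to 2 and 11 to 28 for KO#1 and KO#2 at 0 h, 0 to 1 and 53 to 63 at 24 h, and 0 and 0 to 2 for the differences of responses. The signs that turned were those of Ndufv1 in wt cells (-0.04 with library sizes alone, -0.05 with short coding genes), Cox4i1 in KO#1 (-0.17 with library sizes alone, -0.02 with length offsets), Cox6a1, Ndufs7 and Ndufv1 for KO#2 at 0 h (0.10, 0.08 and 0.05 with GC offsets, 0.08, 0.08 and 0.05 with the block added), and Cox5a, Ndufv1, Uqcrc1 and Uqcrfs1 for KO#2 at 24 h (0.26, 0.04, 0.09 and 0.15 with library sizes alone). The replicate block, with shared numbers that are not known to mark shared cultures, called 62, 36 and 5 members over time in wt cells, KO#1 and KO#2, 23 and 63 between KO#2 and wt cells at 0 h and 24 h, and 1 between KO#1 and wt cells at each time. With 3 libraries a group, a member that did not pass is not shown to be unaltered. The simulation cannot say how often such changes were missed, since it altered few genes and covered the response of wt cells alone. In the data some changes under 2-fold were called.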
